A study of Mus musculus with 12 samples.

Results

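The genes of the proteasome, the protease complex that degrades ubiquitin-tagged proteins, were read in RNA-seq of whole mouse cochleae. They were taken by symbol: every gene whose name starts with Psma, Psmb, Psmc, Psmd or Psme followed by a digit, except Psmb8 and Psmb9, which gave 43 of the 23872 genes that could be read. The study compared mice without the MAP kinase phosphatase gene Dusp1 (Dusp1-/-, KO) with wild type mice (WT), all of a mixed 129S2/SvPas:C57BL/6 strain, at 5 and 8 months of age. The 12 libraries fall into 4 groups of 3, and each library is named by its code. The groups are KO at 5 months (E7, F18 and F19), WT at 5 months (E1, E3 and E4), KO at 8 months (F5, F6 and F27) and WT at 8 months (F1, F10 and F12). The knockout is carried by the whole animal and is not limited to cochlear cells, and the samples hold every cell type of the dissected cochlea, so in these bulk samples fewer cells of a type and less RNA per cell cannot be told apart.

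The proteolytic core of the proteasome (20S) is a barrel of stacked rings, with outer rings of alpha subunits (Psma) that form the gate and inner rings of beta subunits (Psmb), of which Psmb5, Psmb6 and Psmb7 cut proteins. The regulatory cap (19S) has a base with a ring of ATPases (Psmc) that unfold substrates and a set of non-ATPase subunits (Psmd) of base and lid that bind ubiquitin chains and remove them. The core can also bind activators (Psme), and interferon-gamma replaces the catalytic subunits by inducible ones, among them Psmb10 in place of Psmb7, and raises the activator PA28 made of Psme1 and Psme2. In the inner ear, as elsewhere, the complex clears damaged and short-lived proteins.

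By role, 8 of the 43 genes encode alpha subunits, 7 constitutive beta subunits, 2 an inducible or thymic beta subunit, 6 base ATPases, 11 non-ATPase subunits of base and lid, 3 chaperones that assemble the base (Psmd5, Psmd9 and Psmd10) and 4 activators. The symbol rule also takes in Psmc3ip, which acts in meiotic recombination, and Psme2b, a near copy of Psme2 that has a single exon, so that reads of the pair may have been split between them and both are uncertain. Levels are FPKM as deposited by the authors, that is, fragments per kilobase of transcript scaled to the mapped reads of the library. Tests were run on log2(FPKM + 0.5) in a single limma fit of the 4 groups, over the 16258 genes whose 12-library average reached 0.5 FPKM. Of the 43 genes 41 passed this filter. Psma8, a testis alpha subunit, ran between 0.212 and 0.749 FPKM over the libraries and Psmb11, the thymic beta subunit, between 0.216 and 0.451 FPKM, and these 2 were not tested. Changes are differences on the log2(FPKM + 0.5) scale, ± is the standard error of the fit, and p-values adjusted by Benjamini and Hochberg over all tested genes are called at 0.05. Each library has its own code, and the replicates are taken to be separate animals. The meaning of the letters in these codes is not known. In WT the letters cannot be told apart from age (E in all 3 at 5 months, F in all 3 at 8 months). At 5 months they nearly follow genotype (1 E and 2 F in KO, 3 E in WT).

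Promoters of 36 of the 43 genes were matched by symbol to RefSeq windows on GRCm38.p6, each of 300 bases from 250 bases before to 50 bases after the start of transcription. They are shown for the genes that the comparisons below turn on: both PA28 subunits, Psmb10, the activator Psme4, the chaperone Psmd9 and, as a constitutive catalytic subunit, Psmb6. Each window was searched on both strands for TGACNNNGC, the core of the antioxidant response element, for CCAAT, for TTCNNNGAA, a STAT site, and for GAAANNGAA, an interferon response core. Matches are in capitals.
Psme1: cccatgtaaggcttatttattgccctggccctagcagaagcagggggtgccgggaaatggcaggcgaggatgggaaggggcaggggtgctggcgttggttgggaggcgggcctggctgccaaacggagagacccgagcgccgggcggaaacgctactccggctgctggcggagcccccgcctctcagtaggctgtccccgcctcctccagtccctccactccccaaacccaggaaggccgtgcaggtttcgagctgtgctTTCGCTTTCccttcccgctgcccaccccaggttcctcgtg
Psme2: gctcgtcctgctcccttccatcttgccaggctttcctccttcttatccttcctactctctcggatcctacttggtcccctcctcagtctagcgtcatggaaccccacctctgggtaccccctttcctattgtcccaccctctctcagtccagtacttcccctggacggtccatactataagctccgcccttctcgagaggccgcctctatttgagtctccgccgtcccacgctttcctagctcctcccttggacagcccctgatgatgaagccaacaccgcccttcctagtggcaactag
Psmb10: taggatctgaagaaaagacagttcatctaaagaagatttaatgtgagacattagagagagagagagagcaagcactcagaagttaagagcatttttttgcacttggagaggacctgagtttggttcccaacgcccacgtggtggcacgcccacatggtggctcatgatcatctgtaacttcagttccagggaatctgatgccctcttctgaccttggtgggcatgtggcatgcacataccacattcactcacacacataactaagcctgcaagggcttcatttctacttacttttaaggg
Psme4: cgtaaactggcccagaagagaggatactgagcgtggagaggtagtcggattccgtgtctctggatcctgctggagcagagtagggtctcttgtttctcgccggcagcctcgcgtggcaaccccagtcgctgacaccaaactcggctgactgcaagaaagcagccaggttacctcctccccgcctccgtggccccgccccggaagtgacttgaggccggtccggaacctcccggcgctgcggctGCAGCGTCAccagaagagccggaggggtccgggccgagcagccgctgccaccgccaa
Psmd9: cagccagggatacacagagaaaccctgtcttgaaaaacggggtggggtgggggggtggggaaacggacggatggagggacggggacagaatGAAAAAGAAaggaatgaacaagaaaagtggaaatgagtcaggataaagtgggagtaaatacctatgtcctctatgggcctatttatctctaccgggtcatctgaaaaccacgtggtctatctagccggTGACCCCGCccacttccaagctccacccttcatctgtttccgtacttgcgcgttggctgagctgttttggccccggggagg
Psmb6: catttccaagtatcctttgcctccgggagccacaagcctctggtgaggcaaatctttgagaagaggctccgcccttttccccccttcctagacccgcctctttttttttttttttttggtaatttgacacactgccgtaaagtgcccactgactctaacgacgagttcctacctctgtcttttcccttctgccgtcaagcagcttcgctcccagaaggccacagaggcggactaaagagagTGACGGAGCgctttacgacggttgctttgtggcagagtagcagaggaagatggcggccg
These windows lie at chr14:55578244-55578543 on the plus strand (Psme1), chr14:55591052-55591351 on the minus strand (Psme2), chr8:105938343-105938642 on the minus strand (Psmb10), chr11:30771525-30771824 on the plus strand (Psme4), chr5:123227940-123228239 on the plus strand (Psmd9) and chr11:70525107-70525406 on the plus strand (Psmb6). No matches overlap each other in them. The 36 genes have 39 windows, and a gene is counted below if any of its windows holds the motif. The shares over all genes are of single windows, so the units are not alike. The antioxidant core was found in the windows of 6 of the 36 genes (Psmb5, Psmb6, Psmc6, Psmd9, Psmd12 and Psme4), beside 12.4% of the 32851 windows of all genes. The interferon response core was found in those of 6 genes (Psmb3, Psmb4, Psmc2, Psmd4, Psmd9 and Psme1), beside 8.56% of all windows. CCAAT was found in those of 14 genes, beside 37.4% of all windows, and the STAT site only in that of Psmd2, beside 8.3%. The windows of Psme2 and Psmb10 hold none of the 4 motifs. A match is a string of letters and no evidence of binding.

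On the authors' annotation (mm9) Psme1 lies on chromosome 14 at 56197331-56200364 on the plus strand and Psme2 at 56206277-56209938 on the minus strand, with 5912 bases between them. Psmb10 lies on chromosome 8 at 108459628-108462292, Psme4 on chromosome 11 at 30671775-30780361 with 47 exons, and Psmd9 on chromosome 5 at 123678199-123700134. Psmb1 is the only one of the 43 on chromosome 17, 11.01 Mb from Dusp1. Exons of Psme1 overlap those of Emc9 on the other strand, which was read at 21.4 to 36.1 FPKM, and exons of Psmc3ip overlap those of Mlx on the other strand at 22.2 to 24.8 FPKM. The libraries were stranded, but the sources used here do not say whether counting used the strand, and reads of such a pair may be mixed. Psmb5, with a mean of 118.6 FPKM, overlaps the microRNA gene Mir686 on the same strand, which was read at 276 to 780 FPKM. Strand cannot separate the reads of that pair, so the values of Psmb5 given below are uncertain to that extent. Psma4 overlaps AY074887 on the other strand and Psme2b overlaps 9930111J21Rik1 on the same strand.

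Some facts on the libraries bear on what follows. Read depth cannot be had from FPKM and is unknown. At 5 months FPKM add up to between 500308 and 518316 per library in WT and between 528197 and 555600 in KO. At 8 months they add up to between 538329 and 547612 in WT and between 540511 and 583067 in KO. WT at 5 months thus lies below the other groups without overlap. E1 has both the lowest sum and the lowest median of the core and cap subunits, and F6 the highest of both. The limma fit did not equalize these sums, and their part in the changes below was not tested. Dusp1 itself was read at 61.9, 81.5 and 75.3 FPKM in the libraries labelled KO and 60.8, 47.6 and 29.5 FPKM in those labelled WT at 5 months, and at 55.6, 73.8 and 57.1 FPKM in KO and 43.02, 38.26 and 38.61 FPKM in WT at 8 months. Its RNA is thus higher in the libraries labelled KO, a level over the whole gene does not tell a disrupted transcript from an intact one, and every direction given here rests on the labels. Cochlear genes were read in all libraries, high for Otos and Coch of the fibrocytes (1474 to 2763 FPKM and 1888 to 2983 FPKM) and low for hair cell genes, such as Otof (5.88 to 14.4 FPKM) and Slc26a5 (1.04 to 2.72 FPKM). Of the marker lists of other cells, that of neutrophils had the widest range of sums: 15 markers summed to between 4189 and 23090 FPKM in KO and between 88.5 and 695.5 FPKM in WT at 5 months, and to between 908.2 and 16950 FPKM in KO and between 707.9 and 4663 FPKM in WT at 8 months, and none of the 15 was at 0 in any library. At 5 months 9 of 10 B cell markers were higher in KO without overlap (sums of 56.7 to 169.3 FPKM in KO and 34.6 to 43.1 FPKM in WT), 7 of 7 erythroid markers were higher, 6 of them without overlap (1976 to 3779 FPKM in KO and 696.3 to 1975 FPKM in WT), and 11 of 11 neuron and brainstem markers were lower (1741 to 2283 FPKM in KO and 2199 to 2764 FPKM in WT). At 8 months 4 of 10, 7 of 7 and 2 of 11 of these were higher, none without overlap. Library E1 (WT at 5 months) stood apart in Gad1, a gene of inhibitory neurons, at 41.9 FPKM, against 4.65 FPKM or less in the others. Xist, the RNA of the inactive X chromosome, was read at 34.9 FPKM or above in E4, F6, F27 and F1 and at 0.0935 FPKM or less in the other 8, so that it was on in 0 of 3 KO and 1 of 3 WT libraries at 5 months and in 2 of 3 KO and 1 of 3 WT libraries at 8 months.

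The subunits of the core and cap were abundant, and within a role their mean levels differed by at most 2.13-fold. Psmb4, a structural beta subunit, had the highest level of the 43 genes in 12 of 12 libraries (mean 180.5 FPKM, above 97.4% of tested genes), and it was read at 175.7, 190.8 and 174.2 FPKM in KO and 156.2, 172.8 and 172.5 FPKM in WT at 5 months and at 194.4, 205.7 and 163.5 FPKM in KO and 183.6, 181.5 and 194.9 FPKM in WT at 8 months. Psmd11, a lid subunit, had the lowest of the 31 tested core and cap subunits in 12 of 12 (mean 35.8 FPKM). Between these, the beta subunits ran from Psmb5 at 118.6 to Psmb4 at 180.5 FPKM, a 1.52-fold range, and the alpha subunits from Psma5 at 69.0 to Psma2 at 134.4 FPKM, a 1.95-fold range. The ATPases ran from Psmc2 at 68.2 to Psmc5 at 109.3 FPKM and the non-ATPase subunits from Psmd11 to Psmd4, a ubiquitin receptor, at 76.1 FPKM. FPKM is a level per length, so these orders compare RNA molecules and not reads. They are not protein levels.

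The chaperones of base assembly were lower, with Psmd9 at 12.2, Psmd10 at 13.8 and Psmd5 at 25.5 FPKM, and the activators spread over a 4.83-fold range from Psme4 (PA200), a nuclear cap of the core, at 17.2 FPKM to Psme1 at 82.8 FPKM. Psmb10 stood at 29.3 FPKM, below Psmb7, its constitutive counterpart, in 12 of 12 libraries. Psmc3ip stood at 4.53 FPKM, and Psme2b, the lowest tested gene of the group at 0.855 FPKM, ran from 0.423 FPKM in E3 to 1.45 FPKM in E7.

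**Figure D1:**
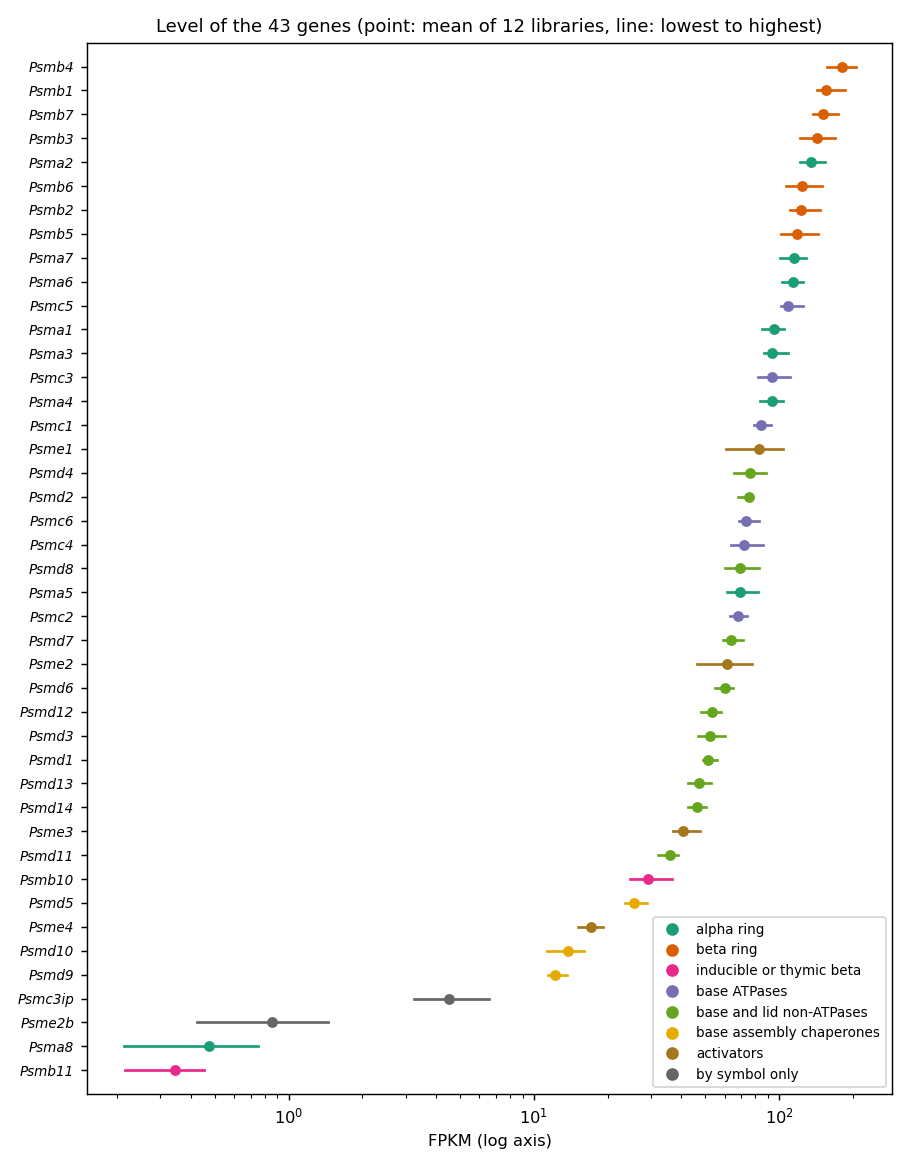
Level of the 43 genes in FPKM on a log axis, ordered by mean; points are means of the 12 libraries, lines run from the lowest to the highest library, and colours mark the role. The 31 tested core and cap subunits lie between 35.8 and 180.5 FPKM, the chaperones and Psme4 below them, and Psma8 and Psmb11 under 0.5 FPKM.

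Spread between libraries was small. The residual SD within groups had a median of 0.091 on the log2 scale over the 41 tested genes, beside 0.153 over all tested genes, and 39 of the 41 lay below that median of all genes. Most of the 41 are among the more abundant tested genes, and their spread was not compared with that of genes of like level. Psmd9 had the lowest residual SD (0.021) and Psme2b, the least abundant, the highest (0.289). Psmd1, a scaffold of the cap, differed by 1.14-fold between its lowest and highest library and Psmd2, the other scaffold, by 1.14-fold, where Psme1 differed by 1.71-fold and Psme2 by 1.67-fold.

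Between KO and WT at 5 months no gene of the group passed the adjusted threshold, where 11 of all 16258 did (0.0677%). The smallest adjusted p of the 41 was 0.166 in limma. At an unadjusted p under 0.05, 5 of 41 (12.2%) were higher in KO, beside 8.25% of all tested genes, and 0 were lower, beside 9.92%. Values of all 3 KO libraries lay above all 3 WT libraries for 11 genes (26.8%), beside 11.3% of all tested genes, and below them for 1 gene (2.44%), beside 13.8%. The 41 fitted changes had a median of 0.07 with 31 above 0, where all tested genes had a median of -0.03 with 44.7% above 0. The median of the 41 was 0.04 without F18 and 0.05 without E1. The count of 5 genes fell to 3 without E1 and to 2 with neutrophil marker level as a covariate.

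The 2 largest differences were in the subunits of PA28. Psme1 was read at 89.6, 88.7 and 77.4 FPKM in KO and 61.7, 60.5 and 74.9 FPKM in WT at 5 months, and every KO library lay above every WT library, F19 and E4 being closest to each other. The fitted change was 0.38 ± 0.11 (adjusted p = 0.191). Psme2 was read at 66.6, 77.5 and 60.98 FPKM in KO and 46.4, 52.6 and 54.2 FPKM in WT. The groups did not overlap here either, and the fitted change was 0.41 ± 0.11 (adjusted p = 0.166). With neutrophil marker level as a covariate the changes were 0.38 and 0.41, and with any single library left out they ran from 0.32 to 0.47 for Psme1 and from 0.32 to 0.49 for Psme2. Neutrophil marker sums did not overlap between KO and WT at 5 months. For any gene at this age, that covariate therefore cannot tell neutrophil level from genotype. The mean of both subunits as a percentage of the mean of the alpha subunits was 75.3 ± 4.83% in KO and 60.55 ± 6.63% in WT at 5 months (SD, n = 3 each), a difference of 14.75 points with no overlap (exact permutation p = 0.1, two-sided, the smallest that 3 against 3 can give). At 8 months it was 76.3 ± 2.13% in KO and 69.9 ± 7.83% in WT, a difference of 6.38 points with overlap (exact permutation p = 0.2, n = 3 each).

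The other activators differed less. Psme3, which forms the nuclear PA28-gamma, was read at 47.7, 41.9 and 42.2 FPKM in KO and 40.5, 38.6 and 38.0 FPKM in WT at 5 months, again without overlap (0.17 ± 0.076, adjusted p = 0.281), but with neutrophil marker level as a covariate its change turned to -0.05. Psme4 was read at 18.1, 19.2 and 18.8 FPKM in KO and 18.01, 18.4 and 17.5 FPKM in WT, and the groups overlapped (0.06 ± 0.059, and -0.02 with that covariate). Psme2b, with 1.45, 0.810 and 0.813 FPKM in KO and 0.823, 0.423 and 0.939 FPKM in WT at 5 months and 0.889, 0.576 and 1.08 FPKM in KO and 0.920, 0.644 and 0.885 FPKM in WT at 8 months, overlapped between genotypes at both ages (0.31 ± 0.24 and 0.02 ± 0.24).

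**Figure D2:**
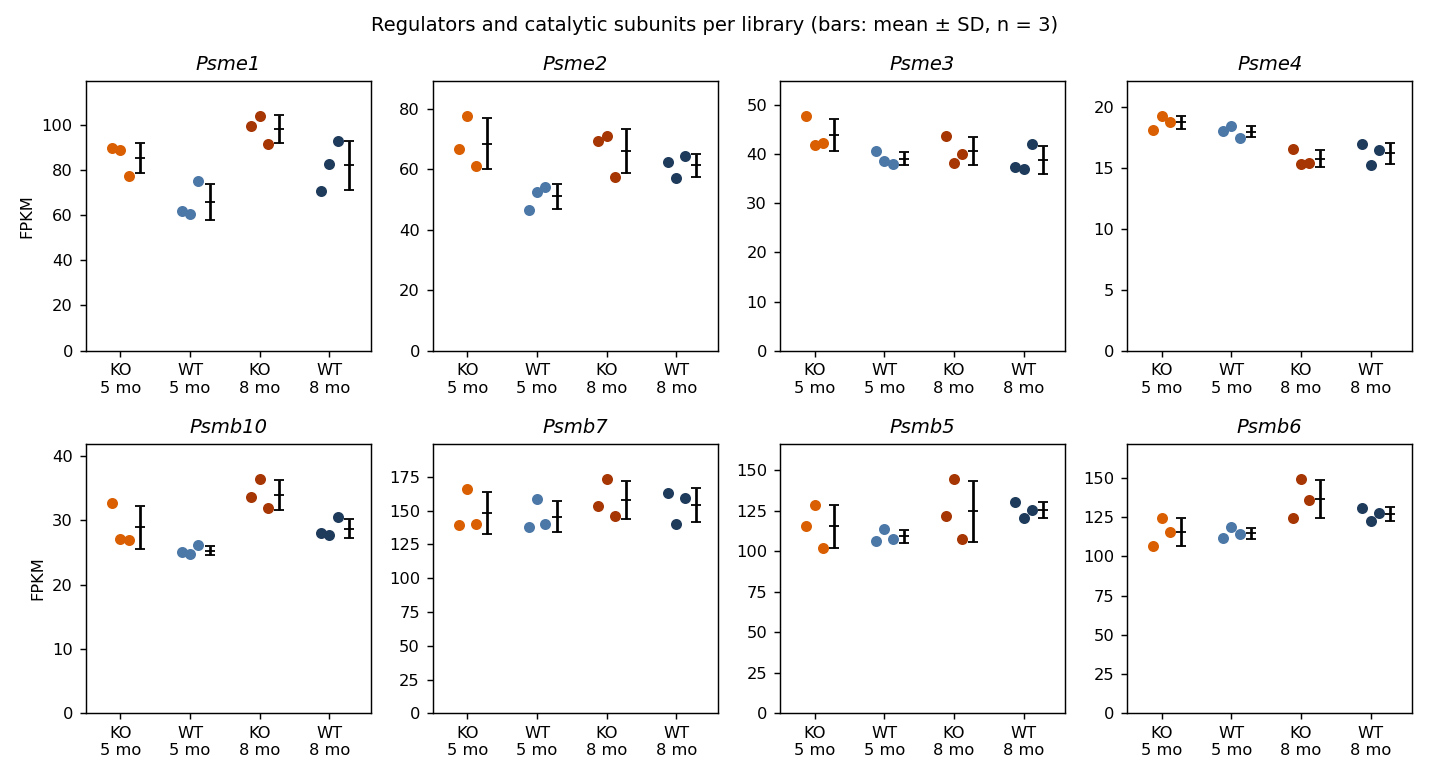
FPKM of the 4 activators, Psmb10 and the 3 constitutive catalytic subunits in each library, KO beside WT at each age; bars are mean ± SD of 3 libraries. At 5 months the KO points of Psme1 (77.4 to 89.6) lie above the WT points (60.5 to 74.9), those of Psmb10 in KO at 8 months (31.9 to 36.5) above WT (27.7 to 30.5), and Psme4 lies lower at 8 months than at 5 months in both genotypes.

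Among the core subunits at 5 months, Psma7 was read at 117.4, 121.3 and 114.1 FPKM in KO and 101.1, 103.6 and 102.6 FPKM in WT, a gap with no overlap and a fitted change of 0.20 ± 0.064 (adjusted p = 0.2). Of the 7 tested alpha subunits 6 were above 0 (median 0.08), and of the 7 beta subunits 7 were (median 0.05). The catalytic subunits overlapped between genotypes. In Psmb5 the values were 115.8, 128.4 and 101.7 FPKM in KO and 106.5, 113.7 and 107.4 FPKM in WT (0.07 ± 0.11). Psmb6 ranged over 106.8, 124.4 and 115.6 FPKM in KO and 111.9, 118.7 and 114.2 FPKM in WT (0.01 ± 0.077). Psmb7 ranged over 139.2, 166.1 and 139.8 FPKM in KO and 138.2, 159.0 and 139.8 FPKM in WT (0.02 ± 0.10). F18 held the highest KO value of each of these 3.

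Psmb10, the inducible counterpart of Psmb7, was read at 32.8, 27.1 and 26.9 FPKM in KO and 25.1, 24.7 and 26.2 FPKM in WT at 5 months. The groups did not overlap, but E7, the library with the highest summed neutrophil markers, stood apart from the other KO libraries, and the fitted change of 0.18 ± 0.084 (adjusted p = 0.277) was 0.09 without E7 and 0.12 with neutrophil marker level as a covariate. Psmb10 as a percentage of Psmb10 plus Psmb7 was 16.4 ± 2.52% in KO and 14.9 ± 1.23% in WT (SD, n = 3 each), a difference of 1.56 points (exact permutation p = 0.4, two-sided), and 0.238 points without E7.

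In the cap at 5 months, Psmd4 was read at 74.4, 82.4 and 75.4 FPKM in KO and 65.2, 68.9 and 69.2 FPKM in WT (0.19 ± 0.071, adjusted p = 0.221), and Psmd13, a lid subunit, at 50.0, 47.2 and 47.8 FPKM in KO and 43.8, 44.9 and 42.7 FPKM in WT (0.14 ± 0.055, adjusted p = 0.228). Neither pair of groups overlapped. Psmd1, a scaffold of the cap, was lower in KO without overlap, at 48.9, 51.1 and 50.3 FPKM in KO and 52.2, 53.5 and 51.7 FPKM in WT (-0.07 ± 0.059, adjusted p = 0.581). Of the 6 ATPases 4 were below 0, with a median of -0.03, and Psmc5 had 104.0, 101.4 and 106.2 FPKM in KO and 106.2, 108.1 and 108.3 FPKM in WT (-0.05 ± 0.065), overlapping only by the near equal values of F19 and E1. With neutrophil marker level as a covariate the change of Psmc5 turned to 0.04, and those of Psmc3 and Psmc4 were 0.22 and 0.22, against 0.08 and 0.08 without it. The non-ATPase subunits had 8 of 11 above 0 and a median of 0.06, and the 6 ATPases averaged 80.4 ± 1.71 FPKM per library in KO and 80.4 ± 1.97 FPKM in WT (SD, n = 3 each). The mean of the ATPases as a percentage of that of the alpha subunits was 78.9 ± 2.43% in KO and 83.3 ± 3.91% in WT, a difference of -4.4 points that was within the overlap of the groups (exact permutation p = 0.2, two-sided).

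Between KO and WT at 8 months no gene of the group passed the threshold either, where 2 of all tested genes did (0.0123%), and the smallest adjusted p of the 41 was 0.94. At an unadjusted p under 0.05, 3 of 41 (7.32%) were higher in KO, beside 2.21% of all tested genes, and 0 were lower, beside 2.97%. The KO libraries lay above all WT libraries for 2 genes (4.88%), beside 4.11% of all tested genes, and below them for 0, beside 6.18%. The median of the 41 changes was 0.07 with 33 above 0, where all tested genes had a median of 0.00 with 48.4% above 0. This median was 0.0350 without F6, the KO library with the highest subunit levels, and 0.0352 without the WT library F10, and the count of 3 genes fell to 0 without F6 and to 1 without F1.

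Psmb10 was read at 33.6, 36.5 and 31.9 FPKM in KO and 28.02, 27.7 and 30.5 FPKM in WT at 8 months. All 3 KO libraries were above all 3 WT libraries, and the fitted change was 0.24 ± 0.084 (unadjusted p = 0.0172, adjusted p = 0.94). Its percentage of Psmb10 plus Psmb7 was 17.75 ± 0.34% in KO and 15.75 ± 0.96% in WT (SD, n = 3 each), a difference of 2.005 points with no overlap (exact permutation p = 0.1, two-sided, the smallest possible). The highest value was that of F6, with summed neutrophil markers of 908.2 FPKM, and F5, with 16950 FPKM of these markers, was read at 33.6 FPKM. With neutrophil marker level as a covariate the change was 0.23. The part of neutrophils in the Psmb10 difference was not tested at either age.

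Psme1 was read at 99.3, 103.7 and 91.4 FPKM in KO and 70.8, 82.5 and 92.6 FPKM in WT at 8 months. F12 reached into the KO range, and the change was 0.27 ± 0.11 (adjusted p = 0.96). Psme2 was read at 69.2, 71.0 and 57.5 FPKM in KO and 62.3, 57.0 and 64.3 FPKM in WT, with overlap through F27, at 0.10 ± 0.11. Psme3 was read at 43.7, 38.2 and 40.0 FPKM in KO and 37.3, 37.0 and 42.0 FPKM in WT (0.07 ± 0.076), and Psme4 at 16.6, 15.3 and 15.4 FPKM in KO and 16.9, 15.2 and 16.4 FPKM in WT (-0.04 ± 0.059). Only for Psme4 was the KO mean the lower one among the 4 activators, and within the spread of the libraries.

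Psmd9 was read at 13.0, 13.6 and 13.3 FPKM in KO and 12.1, 12.2 and 12.2 FPKM in WT at 8 months, with no overlap and a change of 0.12 ± 0.047 (adjusted p = 0.94). At 5 months its values had been 11.7, 11.4 and 11.6 FPKM in KO and 11.5, 11.7 and 11.6 FPKM in WT, which overlapped (0.00 ± 0.047). Among the catalytic subunits at 8 months, Psmb5 had 121.5, 144.5 and 107.6 FPKM in KO and 130.3, 120.6 and 125.4 FPKM in WT, Psmb6 had 124.7, 149.4 and 135.7 FPKM in KO and 131.0, 122.6 and 127.9 FPKM in WT, and Psmb7 had 153.2, 173.5 and 146.2 FPKM in KO and 162.9, 140.0 and 159.5 FPKM in WT. All 3 overlapped, with changes of -0.02 ± 0.11, 0.10 ± 0.077 and 0.03 ± 0.10.

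**Figure D3:**
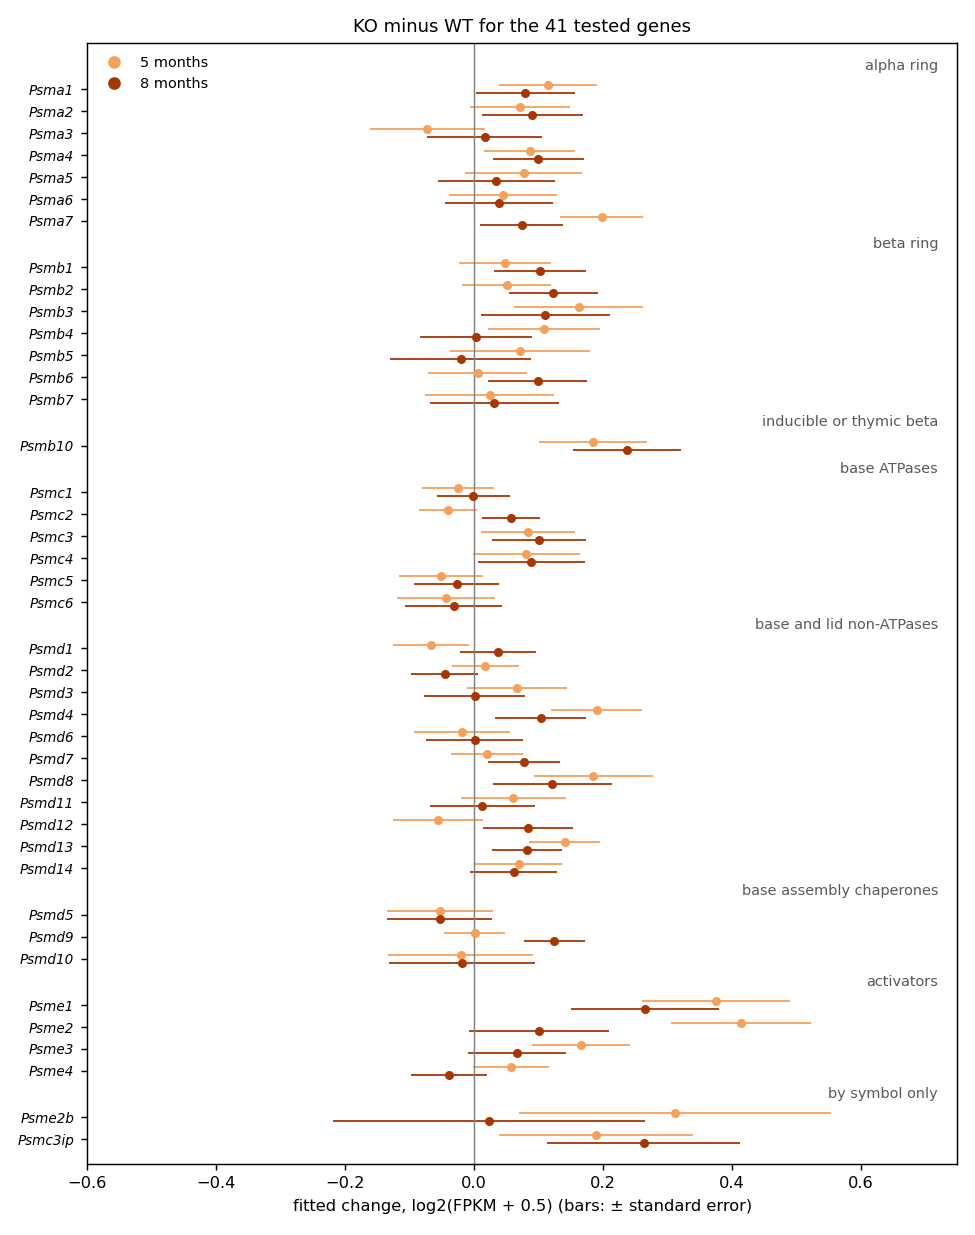
Fitted change of KO over WT at 5 and at 8 months for the 41 tested genes by role, on the log2(FPKM + 0.5) scale, with standard errors. Most points lie to the right of 0 by less than 0.2, with Psme1 (0.38 and 0.27) and Psme2 (0.41 and 0.10) farthest out at 5 months and the ATPases around 0.

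Averaged over both ages, 32 of 41 genes were above 0, with a median of 0.06, where all tested genes had a median of -0.02 with 45.6% above 0. With quantile scaling the median of the 41 was 0.02 averaged over ages, 0.03 at 5 months and 0.04 at 8 months. The medians of all tested genes moved down as well, to -0.0314, -0.0539 and -0.0092. With scaling by the median ratio between libraries the 41 had 0.0737, 0.0924 and 0.0763, where all tested genes had 0.0007, -0.0033 and 0.0031. In the limma fit without such scaling none of the 41 was called averaged over ages, where 13 of all tested genes were (0.0800%). The smallest adjusted p of the 41 was 0.148. At an unadjusted p under 0.05, 7 (17.1%) were higher in KO, beside 7.75% of all tested genes, and 0 lower, beside 9.66%. The largest changes of the 41 were those of Psme1 (0.32 ± 0.081), Psme2 (0.26 ± 0.077), Psmc3ip (0.23 ± 0.11) and Psmb10 (0.21 ± 0.059). Psmc3ip was not among the 7 (unadjusted p = 0.0579 in limma). The lowest 3 were those of Psmd5 (-0.05 ± 0.058), Psmc5 (-0.04 ± 0.046) and Psmc6 (-0.04 ± 0.054). Psmd5 had 26.3, 23.9 and 24.8 FPKM in KO and 23.9, 27.3 and 26.7 FPKM in WT at 5 months, and 25.6, 25.7 and 23.7 FPKM in KO and 28.9, 25.7 and 23.6 FPKM in WT at 8 months. Psmc5 at 8 months had 104.3, 124.7 and 107.2 FPKM in KO and 112.7, 112.6 and 116.2 FPKM in WT, with F6 above all others. Psmc6 had 68.96, 73.9 and 72.3 FPKM in KO and 70.2, 80.3 and 71.5 FPKM in WT at 5 months, and 70.9, 72.6 and 76.5 FPKM in KO and 82.6, 69.4 and 73.4 FPKM in WT at 8 months. Each of these 3 overlapped between genotypes at both ages. The comparisons at 5 and at 8 months share no library, and 28 of 41 genes (68.3%) were above 0 in both and 5 below 0 in both, where 28% of all tested genes were above 0 in both and 34.8% below.

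In the test of whether the genotype difference changed with age, no gene of the group was called, where 1 of all tested genes was (0.00615%), and 0 of 41 had an unadjusted p under 0.05 in either direction, beside 3.02% of all tested genes with a higher and 1.65% with a lower difference at 8 months. The largest was that of Psme2, with a change at 8 months minus that at 5 months of -0.31 ± 0.15 (unadjusted p = 0.0688, adjusted p = 0.877). For Psme1 it was -0.11 ± 0.16.

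With age most of the group had small changes above 0 in both genotypes, and none was called. Between KO at 8 and at 5 months 35 of 41 genes were above 0, with a median of 0.09, where all tested genes had a median of 0.02 with 53.2% above 0. Between WT at 8 and at 5 months 35 of 41 were above 0 as well, with a median of 0.10, where all tested genes had a median of 0.02 with 53.8% above 0. Of all tested genes 0 were called in KO (0%) and 2 in WT (0.0123%). The smallest adjusted p of the 41 was 0.296 in KO and 0.629 in WT.

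At an unadjusted p under 0.05, 7 of 41 (17.1%) were higher and 1 (2.44%) lower at 8 months in KO, beside 8.86% and 3.75% of all tested genes, and 7 (17.1%) were higher and 1 (2.44%) lower in WT, beside 4.29% and 3.56%. The count of 8 in WT fell to 1 without E1, to 1 without F12, and to 3 without E3 or with quantile scaling. Libraries at 8 months lay above all those at 5 months for 9 genes (22%) in KO and below them for 1 (2.44%), beside 11.1% and 4.58% of all tested genes. In WT they lay above for 15 genes (36.6%) and below for 1 (2.44%), beside 10.4% and 8.81%. The 2 comparisons share no library, and 32 of 41 genes (78%) were above 0 in both, beside 33.3% of all tested genes.

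Other genes of like abundance, a set chosen after the data were seen, had changes of the same sign with age, and scaling moved both. The 2323 tested genes whose mean lay in the range of the 31 subunits, 35.8 to 180.5 FPKM, had median changes of 0.06 in KO and 0.05 in WT between the ages, where the 31 subunits had 0.09 in both. Of these 2323 genes 66.9% in KO and 63.8% in WT were above 0, beside 93.5% and 87.1% of the subunits. The older libraries lay above all younger ones for 17.5% of them in KO and 16.1% in WT, beside 19.4% and 38.7% of the subunits. With quantile scaling the subunits had 0.03 in both, and the genes of that range 0.02 in KO and 0.00 in WT. Between KO and WT the same range of genes had a median of -0.01 at 5 months and 0.01 at 8 months, where the subunits had 0.06 at each age, and with quantile scaling the subunits had 0.01 and 0.03, where that range of genes had -0.04 and -0.01.

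The libraries did not contribute equally to the change with age. Of the 31 subunits, 25, 29 and 19 were above their own 12-library median in F5, F6 and F27 (KO at 8 months), against 8, 23 and 4 in E7, F18 and F19 (KO at 5 months), so F18 lay among the older libraries. They numbered 19, 15 and 27 in F1, F10 and F12 (WT at 8 months), against 2, 9 and 6 in E1, E3 and E4 (WT at 5 months), with no overlap (exact permutation p = 0.1, two-sided, the smallest possible). E1, the library with high Gad1, was the lowest, and without it the median of the 41 changes in WT was 0.07. Without F6 that in KO was 0.05.

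**Figure D4:**
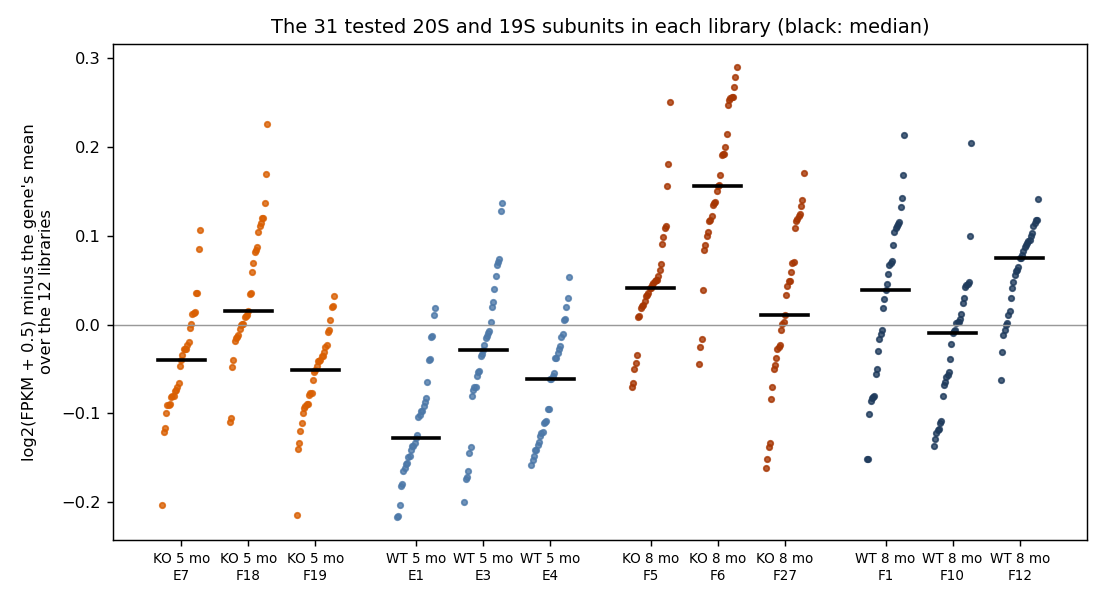
The 31 tested core and cap subunits in each library, as log2(FPKM + 0.5) minus the mean of the gene over the 12 libraries; each point is a gene and the black bar the median. F6 (KO at 8 months) lies highest, with a median of 0.16, and E1 (WT at 5 months) lowest, with a median of -0.13.

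By role, the beta ring averaged 152.3 ± 14.2 FPKM per library in KO at 8 months and 138.9 ± 9.07 FPKM in KO at 5 months, and 145.3 ± 6.01 FPKM in WT at 8 months and 132.2 ± 5.97 FPKM in WT at 5 months (SD, n = 3 each). All 7 beta genes had a change above 0 in both genotypes. Psmb2, a structural beta subunit, had 125.3, 147.5 and 138.0 FPKM in KO at 8 months and 115.8, 119.1 and 115.1 FPKM in KO at 5 months (0.23 ± 0.069, adjusted p = 0.318), and 128.3, 116.8 and 131.6 FPKM in WT at 8 months and 110.4, 116.6 and 111.0 FPKM in WT at 5 months (0.15 ± 0.069). Neither pair of groups overlapped, F10 and E3 being nearly equal. Psmb6 had 0.24 ± 0.077 in KO and 0.15 ± 0.077 in WT, Psmb5 0.11 ± 0.11 in KO and 0.20 ± 0.11 in WT, and Psmb7 0.09 ± 0.10 in KO and 0.08 ± 0.10 in WT.

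All 6 ATPases were above 0 in both genotypes, and their mean per library did not overlap between ages: 87.7 ± 4.7 FPKM in KO at 8 months and 80.4 ± 1.71 FPKM in KO at 5 months, and 85.9 ± 2.18 FPKM in WT at 8 months and 80.4 ± 1.97 FPKM in WT at 5 months (SD, n = 3 each; exact permutation p = 0.1 for each, two-sided, the smallest possible). Psmc2 had 70.7, 73.8 and 74.1 FPKM in KO at 8 months and 65.0, 63.0 and 63.8 FPKM in KO at 5 months (0.19 ± 0.045, unadjusted p = 0.00202, adjusted p = 0.296). In WT it had 70.8, 68.2 and 71.0 FPKM at 8 months and 63.6, 66.4 and 67.4 FPKM at 5 months (0.09 ± 0.045). The older libraries were above the younger ones in both genotypes. Among the chaperones Psmd9 had 0.19 ± 0.047 in KO and 0.07 ± 0.047 in WT, while Psmd5 had 0.00 in both.

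Psme4 had the lowest change with age of the 41 in both genotypes. It was at 16.6, 15.3 and 15.4 FPKM in KO at 8 months, against 18.1, 19.2 and 18.8 FPKM in KO at 5 months (-0.24 ± 0.059, unadjusted p = 0.00203, adjusted p = 0.296). In WT it was at 16.9, 15.2 and 16.4 FPKM at 8 months, against 18.01, 18.4 and 17.5 FPKM at 5 months (-0.15 ± 0.059, unadjusted p = 0.031, adjusted p = 0.629). In both genotypes every older library was below every younger one, and over the single libraries left out the change ran from -0.28 to -0.22 in KO and from -0.18 to -0.10 in WT. It was the 1 gene of the 41 that was lower at 8 months at an unadjusted p under 0.05 in either genotype.

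Psme1 had the largest change of the 41 with age in WT, 0.31 ± 0.11 (adjusted p = 0.629), with 70.8, 82.5 and 92.6 FPKM at 8 months and 61.7, 60.5 and 74.9 FPKM at 5 months, overlapping through F1 and E4. In KO its change was 0.20 ± 0.11. Psme2 had 0.26 ± 0.11 in WT, where the ages did not overlap, and -0.05 ± 0.11 in KO. Psmb10 had 0.23 ± 0.084 in KO and 0.18 ± 0.084 in WT. Psmc3ip had the largest change of the 41 in KO, 0.36 ± 0.15, with 5.29, 4.98 and 6.56 FPKM at 8 months and 4.62, 4.004 and 4.07 FPKM at 5 months, which did not overlap, and 0.29 ± 0.15 in WT, with 3.56, 5.36 and 4.95 FPKM at 8 months and 3.78, 3.24 and 3.93 FPKM at 5 months.

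**Figure D5:**
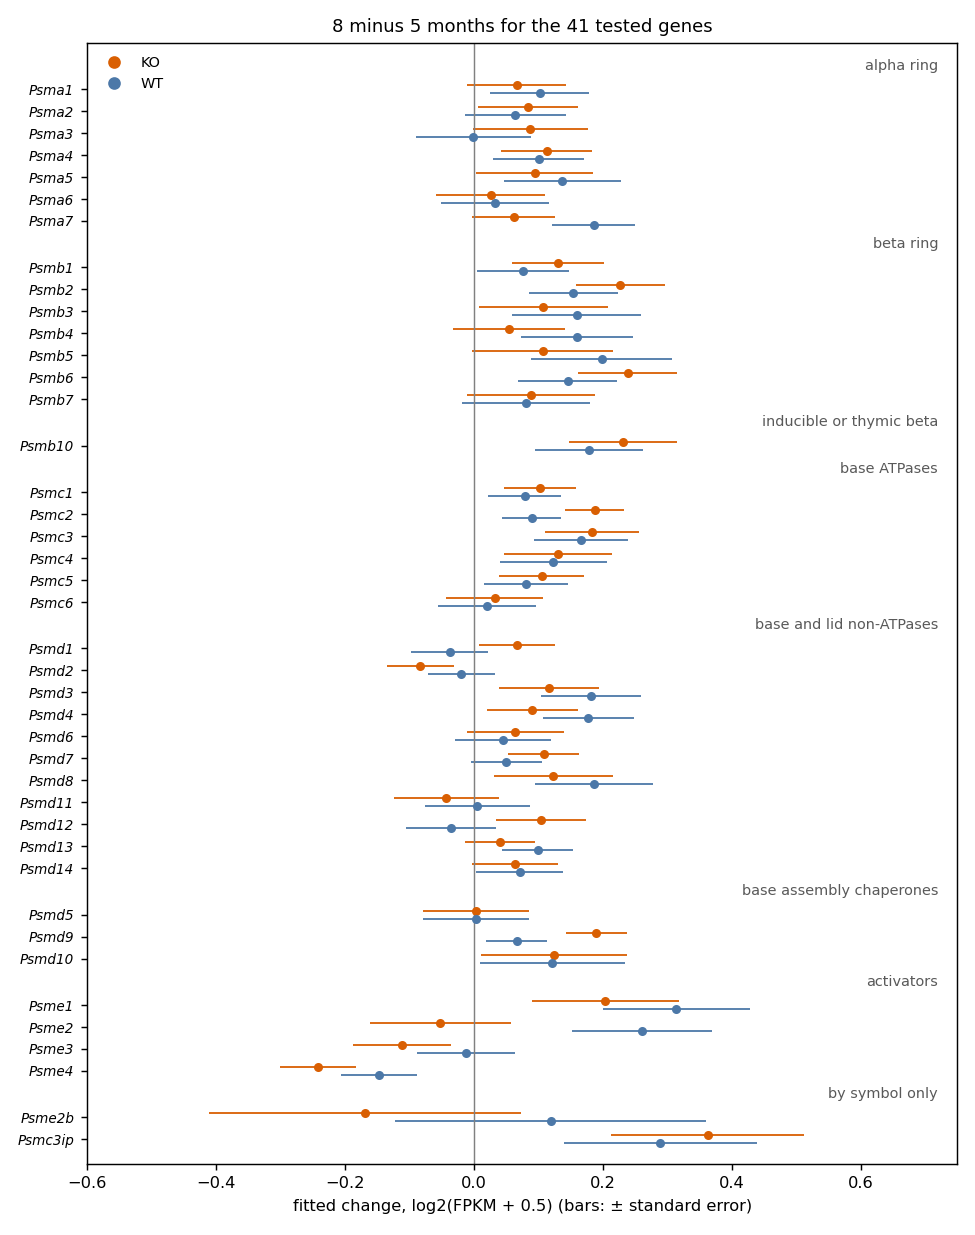
Fitted change of 8 over 5 months in KO and in WT for the 41 tested genes by role, on the log2(FPKM + 0.5) scale, with standard errors. The beta ring and the ATPases lie to the right of 0 in both genotypes, and Psme4 lies to the left in both (-0.24 in KO and -0.15 in WT).

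Genes around the proteasome that the symbol rule leaves out had mixed directions. Of 18 assembly factors and regulators, 7 were above 0 and 11 below in KO over WT at 5 months (median -0.03), and 9 and 9 at 8 months (median 0.00). Shfm1, which encodes the small lid subunit Sem1, had the largest change at both ages: its mean was 255.2 FPKM in KO and 204.6 FPKM in WT at 5 months (0.32 ± 0.088, adjusted p = 0.175), and 289.2 FPKM in KO and 244.1 FPKM in WT at 8 months (0.24 ± 0.088, adjusted p = 0.94), with no overlap at either age. Usp14, a deubiquitinase of the cap, was lowest at 5 months (-0.20 ± 0.086) and Zfand5, an activator of the cap, at 8 months (-0.16 ± 0.11). Nfe2l1, the transcription factor that induces proteasome genes when the complex is inhibited, had -0.06 ± 0.065 at 5 months and -0.08 ± 0.065 at 8 months, and Pomp, the chaperone of core assembly, 0.08 ± 0.076 and 0.05 ± 0.076. None of the 18 was called.

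Of 14 genes of ubiquitin, its activation and its shuttles, 6 were above 0 at 5 months (median -0.04) and 7 at 8 months (median 0.00), and none was called. At an unadjusted p under 0.05, 1 (7.14%) was higher and 2 (14.3%) lower in KO at 5 months, beside 8.25% and 9.92% of all tested genes. At 8 months 0 were so in either direction, beside 2.21% higher and 2.97% lower of all tested genes. Ubqln2, a shuttle, was lowest at 5 months (-0.23 ± 0.089), with no overlap, and Uba6, a ubiquitin-activating enzyme, at 8 months (-0.19 ± 0.13).

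Partners of the proteasome in antigen processing had mostly higher values in KO, as PA28 did, though none was called. Of 11 genes, 9 were above 0 at each age, with medians of 0.21 at 5 months and 0.10 at 8 months, and none was called. Tap1, which carries peptides into the endoplasmic reticulum, averaged 11.3 FPKM in KO and 7.49 FPKM in WT at 5 months (0.54 ± 0.19, adjusted p = 0.22), with no overlap. At 8 months it averaged 12.2 FPKM in KO and 9.96 FPKM in WT (0.30 ± 0.19, adjusted p = 0.962), and the groups overlapped. Canx, a chaperone of the endoplasmic reticulum, was lowest at both ages (-0.10 ± 0.076 and -0.08 ± 0.076). Neutrophil marker level entered as a covariate only, and the part of immune cells in these differences was not tested. Beside the neutrophil genes and the other lists given above, 9 macrophage markers summed to between 398.6 and 652.4 FPKM in KO and between 308.7 and 366.3 FPKM in WT at 5 months. Of the 9, only 2 were higher in KO without overlap (22.2%, beside 11.3% of all tested genes). Much of the difference in sums lay in 1 of these 2, Tyrobp, at 296.8, 110.6 and 154.5 FPKM in KO and 72.2, 74.7 and 71.7 FPKM in WT. At 8 months the 9 markers summed to between 349.1 and 623.1 FPKM in KO and between 344.7 and 448.4 FPKM in WT.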

How the data were processed

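The authors isolated polyA RNA from whole cochleae, sequenced stranded libraries as single reads, checked them with FastQC 0.10.1, aligned them with TopHat2 2.0.10 on Bowtie 1.0.0, with SAMtools 0.1.19, against mm9, and took FPKM per gene with Cufflinks 2.2.1, as their processing notes list. In the deposited FPKM table many values had lost their decimal point. The point was put back so that the 3 libraries of a group average to that group's FPKM in the Cuffdiff files (relative tolerance 2e-05), and no gene had more than 1 such solution; 55.26% of the values changed, 79 of 23951 genes without a solution were left out, none of them a proteasome gene, and 18 gene names stored as dates were put back. The group FPKM were used for this only. The comparison columns of Cuffdiff and the enrichment reports hold the authors' own results and were not used.

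Tests used limma 3.58.1 (R 4.3.3), and tables and figures Python 3.11.15. Values entered as log2(FPKM + 0.5), with a filter at a mean of 0.5 FPKM, a variance trend, 1 fit of 4 groups and 6 contrasts; p was adjusted over all tested genes, with a threshold of 0.05. Single ratios were compared by exact permutation of 3 against 3 libraries. The fit was checked on simulated data. Depth is unknown, so precision is that of the 3 libraries per group. The genes with values per library were Psmb5, Psmb6, Psmb7, Psmb10, Psme1 to Psme4, the 3 largest and 3 smallest changes averaged over ages, the largest change of each other contrast and the highest and lowest level; Psma7, Psmb2, Psmc2, Psmd1, Psmd4, Psmd9 and Psmd13 were added after their values were seen. Of the other lists the highest and lowest change at 5 and 8 months were named, with Nfe2l1 and Pomp, which were added likewise; the highest changes of the ubiquitin list, and of the antigen processing list at 8 months, are not reported here. The genes and lists were chosen with earlier results of these data known. Alternatives were other pseudocounts, filters, scalings and variance models, the compared groups alone, covariates for neutrophil marker and Xist level, and leaving out 1 library at a time. No other file was used beside the authors' annotation and RefSeq promoters.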

Additional observations from a re-analysis of the deposited data

How the results depend on the processing

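No gene of the group was called in any of the 6 comparisons under any alternative that was run, and the smallest adjusted p among the 41 tested genes over the pseudocounts, scalings, array weights, covariates and single libraries left out was 0.105 (Psme2, KO against WT at 5 months without F5). The counts at an unadjusted p under 0.05 over all alternatives ran from 2 to 8 at 5 months, from 0 to 5 at 8 months, from 4 to 10 averaged over ages, from 5 to 11 for age in KO and from 1 to 12 for age in WT, against 5, 3, 7, 8 and 8 in the reported fit.

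The median change of the 41 genes moved by more than the spread between libraries (0.0503 on the log2 scale) under quantile scaling for age in KO, where it was 0.0335, against 0.09. With single libraries left out the medians ran from 0.04 to 0.08 for KO against WT at 5 months, from 0.035 to 0.10 at 8 months, from 0.04 to 0.08 averaged over ages, from -0.04 to 0.04 for the difference between ages, from 0.05 to 0.13 for age in KO and from 0.07 to 0.13 for age in WT. The Psmb10 percentage differed by 0.238 to 2.75 points at 5 months and by 1.47 to 2.39 points at 8 months. The cause of these shifts was not tested. No paired analysis was possible because the labels name no pairs of animals between groups. The set of genes of like abundance was chosen after seeing the data. Depth is unknown, which limits the reading of the low Psma8, Psmb11 and Psme2b.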
